A study of Mus musculus with 2 samples.

Results

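Among 18029 LSK cells that passed the submitters' quality filter, 1630 were Dntt-high lymphoid progenitors without Il7r. They were chosen by their own counts. A member held at least 3 UMIs (unique molecular identifiers, 1 per captured transcript) of Dntt, 0 of Il7r, fewer than 20 of Mpo and fewer than 2 of Siglech. It also held a UMI of fewer than 3 of the 6 B-lineage genes Cd79a, Cd79b, Vpreb1, Vpreb3, Igll1 and Ebf1. LSK cells (Lin-, Sca1+, Kit-high) are the bone marrow fraction that holds the stem cells and multipotent progenitors of the blood. They were sorted from the marrow of young WT mice and of young IκB– mice, which the deposited cell table names IkBKO. The cells of each genotype were marked with a hashing antibody and the 2 genotypes of a replicate were sequenced in 1 droplet library, so 2 libraries held 4 pools: WT and IkBKO of replicate 1, and WT and IkBKO of replicate 2. The sources used here give no strain, no age beyond "young", no list of the altered IκB genes and no number of mice per pool. The p-values therefore measure only the spread among these pools.

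Dntt encodes terminal deoxynucleotidyl transferase, the polymerase that adds untemplated nucleotides at the joints of rearranging antigen receptor genes. Its transcript appears in multipotent progenitors that begin lymphoid priming, and in most accounts of mouse marrow it comes before Il7r, the receptor for the cytokine that drives early B and T cell growth. Flt3, a cytokine receptor of lymphoid-biased multipotent progenitors, and Arpp21, an RNA-binding protein transcribed in lymphoid precursors, are used beside Dntt to mark this step. IκB proteins hold NF-κB transcription factors in the cytoplasm.

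The promoters shown are those of Dntt, which defined the class, and of Cmah and Bfsp2, 2 of the 12 genes with the largest rise along it among called genes that reached 10 CPM and rose in all 4 pools. Of 24 genes looked up, 17 were matched by symbol in RefSeq (GRCm38.p6). Each sequence is the 250 bases before the annotated start, 5′ to 3′ on the strand of the gene, at chr19:41029025-41029274 (+ strand) for Dntt, chr13:24327154-24327403 (+ strand) for Cmah and chr9:103449177-103449426 (− strand) for Bfsp2. Capitals mark the E-box letters CAGCTG and CACCTG, searched on both strands.
Dntt: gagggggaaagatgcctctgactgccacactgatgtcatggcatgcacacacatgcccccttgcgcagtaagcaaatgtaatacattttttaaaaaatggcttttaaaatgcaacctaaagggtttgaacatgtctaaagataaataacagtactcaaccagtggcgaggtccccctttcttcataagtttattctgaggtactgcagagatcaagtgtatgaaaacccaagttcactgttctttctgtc
Cmah: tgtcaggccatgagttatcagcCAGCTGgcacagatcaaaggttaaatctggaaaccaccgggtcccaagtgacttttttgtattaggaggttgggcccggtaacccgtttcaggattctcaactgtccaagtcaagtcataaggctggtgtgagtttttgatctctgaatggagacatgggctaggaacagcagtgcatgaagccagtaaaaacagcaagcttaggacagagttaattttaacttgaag
Bfsp2: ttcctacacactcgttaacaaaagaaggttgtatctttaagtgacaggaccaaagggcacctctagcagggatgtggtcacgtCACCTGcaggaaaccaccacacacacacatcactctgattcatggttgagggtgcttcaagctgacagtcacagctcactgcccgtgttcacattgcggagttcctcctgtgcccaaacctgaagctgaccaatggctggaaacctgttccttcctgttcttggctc
The Dntt window held neither set of letters, nor the octamer ATGCAAAT. Cmah held CAGCTG from 228 bases before the start, and Bfsp2 held CACCTG from 167 bases before it. In windows of 300 bases around the start, CACCTG stood in 9 of 19 promoters of those 12 genes, from 4 genes (AA467197, Arpp21, Bfsp2 and Blnk), and CAGCTG in 5, from Arpp21 and Cmah. Of all 32851 RefSeq mouse promoters of that length, 20.2% held CACCTG and 16.3% held CAGCTG. The promoters of Arpp21 overlap each other, so these counts describe few independent windows. Among the promoters of the 12 genes highest in IkBKO members, 1 of 8, that of Slc4a8, held a κB motif, beside 8.46% of all promoters.

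The members were of ordinary depth for these libraries. Their median was 10300 UMIs in WT and 12846 in IkBKO of replicate 1, and 8151 and 12082 in replicate 2, where all passing cells had medians of 9963, 13709, 6983 and 9641 in the same order. IkBKO pools were thus deeper per cell in both libraries. The summed counts behind each pool were 6266891, 1891632, 6464521 and 3858784 UMIs. The filter had passed 82.4% of 9322 barcodes in replicate 1 and 41.7% of 24787 in replicate 2, and 39 barcode sequences occurred in both libraries. The libraries also differed in sex-linked RNA. Xist, the RNA of the inactive X chromosome, was at 1840 CPM (UMIs of the gene per 1000000 UMIs of the pool) in WT and 1537 CPM in IkBKO members of the first library and at or below 0.259 CPM in those of the second, where Ddx3y, a Y-linked gene with 0 UMIs in the first, was at 49.5 and 48.5 CPM. Each genotype pair within a library was thus alike in these genes.

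The genes of the rule and the label's markers are given as a description. Dntt stood at 913 and 968 CPM in WT and IkBKO members of replicate 1, with 824 and 868 CPM in replicate 2. The rule set a lower limit on Dntt, so these 4 levels do not compare the genotypes. The 707 cells that passed the same gate with Il7r present, called double-positive here, averaged 2001 CPM of Dntt. Flt3 averaged 229 CPM in members and 84.2 CPM in all other cells, and 88.0% of members held a UMI of it. Arpp21 averaged 40.1 CPM against 11.5 CPM, with a UMI in 28.4% of members. Neither gene was at its highest in members: double-positive cells averaged 253 CPM of Flt3 and 157 CPM of Arpp21. Cells chosen to hold Flt3 and Satb1 but no Dntt averaged 252 CPM of Flt3 and 5.14 CPM of Arpp21. Markers of committed cells were mixed. Ms4a1 and Pou2af1 of the B lineage, Cd2 of T cells and the lymphoid markers Ikzf3 and Mme had no UMI in any member. Cd79b of the B lineage averaged 39.8 CPM in members, with a UMI in 34.0% of them, and 35.0 CPM in other cells. The granule protease gene Prtn3 had a UMI in 77.9% of members. The label's markers were thus present. Just below the Dntt limit lay 148, 39, 189 and 81 otherwise fitting cells with 2 UMIs (WT and IkBKO of replicate 1, then of replicate 2), and just inside it 85, 19, 138 and 56 members with 3. A single Il7r UMI kept out 81, 34, 109 and 45 cells. In cells rich in Elane, a neutrophil granule protease, or in Pf4, a platelet factor, which should lack Dntt, the share with 3 or more Dntt UMIs ran from 0% to 4.35% over the pools, and those Elane-rich cells were deeper, with medians of 23399 to 27022 UMIs.

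Antibody tags, present in replicate 1, were not part of the rule. CD48, a surface protein of multipotent progenitors that stem cells lack, had a median of 536 tag counts in WT members and 688 in IkBKO members. It was at 466 and 562 in all other cells, and at 377.5 and 460.5 in cells with at least 3 UMIs of the stem cell factor Hlf and no Dntt. CD150, which marks stem cells, was at 109.5 and 105 in members and 111 and 109 in other cells. The Flt3 tag was at 128.5 and 129 in members and at 126 and 120 in other cells. With 1 library there is no replicate of these tag levels.

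Members were a smaller share of the IkBKO than of the WT LSK cells in both libraries. These are shares of sorted cells that passed the filter, not numbers of cells in marrow. They made up 14.5% of WT LSK cells (538 of 3721, exact 95% binomial interval 13.3 to 15.6%) and 3.53% of IkBKO cells (140 of 3962, 2.98 to 4.16%) in replicate 1. In replicate 2 they made up 13.4% of WT cells (663 of 4963, 12.4 to 14.3%) and 5.37% of IkBKO cells (289 of 5383, 4.78 to 6.0%). The WT share was 4.09 times the IkBKO share in replicate 1 and 2.49 times in replicate 2, and the pools of the genotypes did not overlap. An exact two-sided permutation test, which shuffled the 4 pools without regard to library, gave p = 0.333. That is the smallest p such a shuffle allows with 2 pools a genotype, so the difference could not pass a test. Intervals cover counting error only. With every cell thinned to 5000 UMIs the shares were 11.3% and 3.21% in replicate 1 and 11.3% and 4.59% in replicate 2.

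A larger share of the IkBKO cells held Il7r. Among all cells that passed the gate apart from Il7r, 25.3% held Il7r in WT and 38.6% in IkBKO of replicate 1, and 29.2% and 36.2% in replicate 2. After thinning to 5000 UMIs these shares were 22.9% and 31.9%, and 29.5% and 34.1%. IkBKO pools were higher in both libraries, by less in replicate 2, where the exact intervals at the thinned depth overlapped (26.0 to 33.2% against 29.1 to 39.4%).

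**Figure D1:**
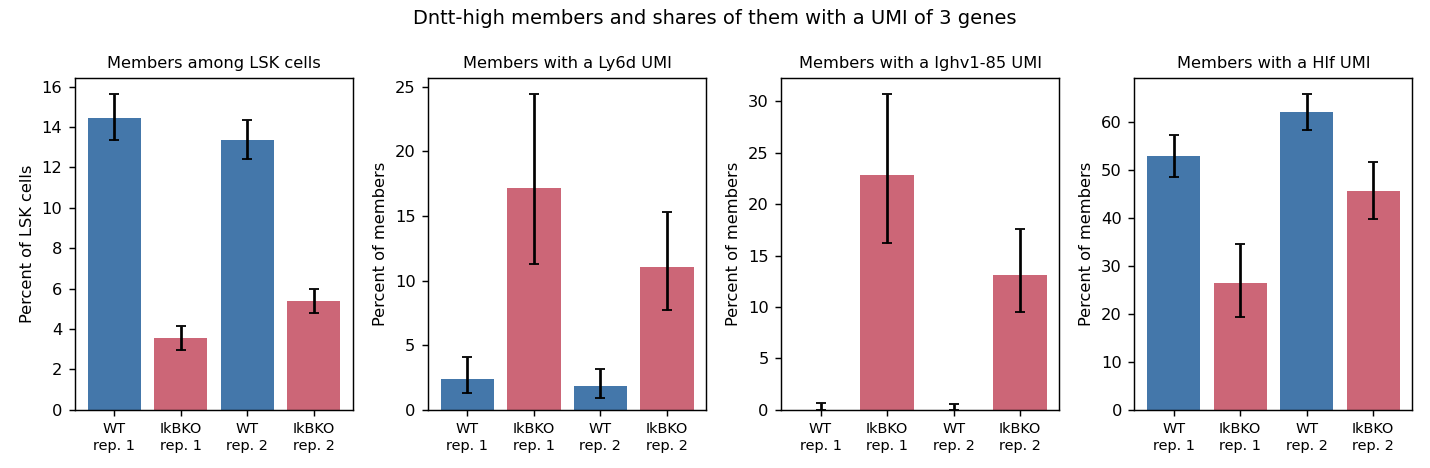
Bars give the percent of LSK cells that were members, and the percent of members with a UMI of Ly6d, Ighv1-85 and Hlf, in each of the 4 pools, and lines are exact 95% binomial intervals. Members were 14.5% and 13.4% of WT cells but 3.53% and 5.37% of IkBKO cells, and Ly6d and Ighv1-85 were seen in more, and Hlf in fewer, IkBKO members.

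Inside the class, IkBKO members carried more Ly6d, more of some immunoglobulin heavy-chain V segments and of some MHC class II and G1/S genes, and less of most immediate-early and several stem cell genes. Summed counts of members were compared between genotypes with the library as a block by edgeR's quasi-likelihood test, and a gene was called at a Benjamini-Hochberg adjusted p of at most 0.05. Of 11209 genes tested, 824 (7.35%) were called: 427 (3.81%) were higher and 397 (3.54%) lower in IkBKO members, and the median log2 difference over all genes was −0.0028. With all 4 pools but no block, 34 were higher and 34 lower. DESeq2, another test of counts, called 52 higher and 15 lower with the block kept. Of the 64 called genes that were picked for naming, 61 missed the threshold in DESeq2. Each pool was also left out in turn, without the block, which 3 pools cannot carry, so that the lone pool of a genotype was assumed to vary like the pair of the other. Without IkBKO of replicate 1 there were 29 higher and 35 lower, without IkBKO of replicate 2 there were 34 and 24, without WT of replicate 2 there were 87 and 87, and without WT of replicate 1 there were 177 and 182. No gene was called in the opposite direction in these sets, although a few of the 824 changed sign below the threshold: 819 of 823 tested kept their sign without IkBKO of replicate 1, 816 of 818 without IkBKO of replicate 2, 800 of 810 without WT of replicate 2 and 819 of 821 without WT of replicate 1.

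Ly6d, a surface protein that marks lymphoid progenitors turning to the B lineage, was among the genes that rose most. Replicate 1 gave 10.4 CPM for WT and 95.2 CPM for IkBKO members, and replicate 2 gave 6.497 and 110.4 CPM. Both IkBKO pools lay far above both WT pools (log2 difference 3.70 ± 0.16 SE, edgeR adjusted p = 2.14e-19). It was seen in 2.42% of WT members (13 of 538, exact 95% interval 1.29 to 4.10%) and 17.1% of IkBKO members (24 of 140, 11.3 to 24.4%) in replicate 1, and 1.81% (12 of 663, 0.939 to 3.14%) and 11.1% (32 of 289, 7.70 to 15.3%) in replicate 2. A single cell held 36 of the 65 Ly6d UMIs of WT members in replicate 1. The difference was not seen in members with 3 to 5 Dntt UMIs. There Ly6d was in 4 of 193 WT and 0 of 45 IkBKO cells in replicate 1, and in 0 of 292 and 2 of 104 in replicate 2. With 12 or more Dntt UMIs it was in 5 of 166 and 20 of 58, and in 7 of 130 and 21 of 95. With cells chosen anew and counted after thinning to 5000 UMIs, the shares were 3.52% and 28.2%, and 2.21% and 18.3%. Thinning can remove the Il7r UMIs of a cell, so this set can hold cells that were double-positive before. It held 35 and 41 IkBKO cells with Ly6d, against 24 and 32 among members, so it is not a control for depth alone. In double-positive cells, with medians of 9610 to 13727.5 UMIs, the shares with Ly6d were 22.5% and 70.5% in replicate 1 and 19.0% and 54.3% in replicate 2. These shares were higher in every pool than in members of the same pool.

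Ighv1-85, an immunoglobulin heavy-chain V gene segment, had no UMI in 538 and 663 WT members, which allows shares of up to 0.683% and 0.555%. In IkBKO members it stood at 49.2 CPM (22.9% of cells) in replicate 1 and 27.0 CPM (13.1% of cells) in replicate 2. Against a floor of 3 UMIs for each WT pool, that was at least 102.7-fold and at least 58.1-fold higher. AA465934 rose from 6.86 to 193 CPM in replicate 1 and from 3.71 to 132 CPM in replicate 2 (log2 5.02 ± 0.15, edgeR adjusted p = 3.57e-51), with UMIs in 80.0% and 71.3% of IkBKO members and 7.43% and 3.02% of WT members. Gdpd3, a lysophospholipase D, rose from 2.55 to 47.0 CPM and from 0.773 to 24.1 CPM (log2 4.49 ± 0.28). Ighv1-78, another heavy-chain V segment, rose by 3.201 on the log2 scale, and the helicase gene Dhx40 by 2.21. These 5 genes and Ly6d were called with any one of the 4 pools left out, although Gdpd3 missed the threshold with all pools and no block (edgeR adjusted p = 0.0667).

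The other 6 of the 12 highest genes lost the call in at least 1 such set. They were the serine protease inhibitor Serpina3f (log2 2.89), the lymphocyte GTPase Gimap4 (2.75), the chemokine Ccl5 (2.63), Ly86, which encodes the partner of the receptor RP105 (1.96), the interferon-induced GTPase Gbp6 (1.88) and the bicarbonate transporter Slc4a8 (1.85). Ccl5 rested on few cells: 1 IkBKO member of replicate 1 held 111 of its pool's 145 UMIs.

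Among the 12 lowest genes, 3 were called with any one pool left out: Mid1, Slfn5 and Fos. Mid1, a ubiquitin ligase gene on chromosome X, stood at 12.8 and 8.51 CPM in the WT pools and at 0 and 0.777 CPM in the IkBKO pools (log2 −4.12 ± 0.57, edgeR adjusted p = 2.39e-08). Slfn5, a Schlafen family gene, fell by 3.47 on the log2 scale. Other low genes rested on 1 pool or cell. Gria2, a glutamate receptor subunit, stood at 22.4 CPM in WT of replicate 2 but 2.71 CPM in WT of replicate 1, with 1.06 and 0.259 CPM in the IkBKO pools. The neutrophil genes Ngp and Lcn2 owed 338 of 345 and 159 of 161 UMIs in WT of replicate 2 to 1 member, which held 97.0% of that pool's UMIs of the mature neutrophil list. The rest were the histone gene Hist3h2ba (−3.57), the scaffold gene Tanc1 (−3.52), the antiviral gene Ifit1 (−2.45), the AP-1 gene Fosb (−2.44), Tmem158 (−2.40) and the transcription factor Klf2 (−2.35). All 24 genes had WT and IkBKO pools that did not overlap, as did 39.9% of all genes tested.

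**Figure D2:**
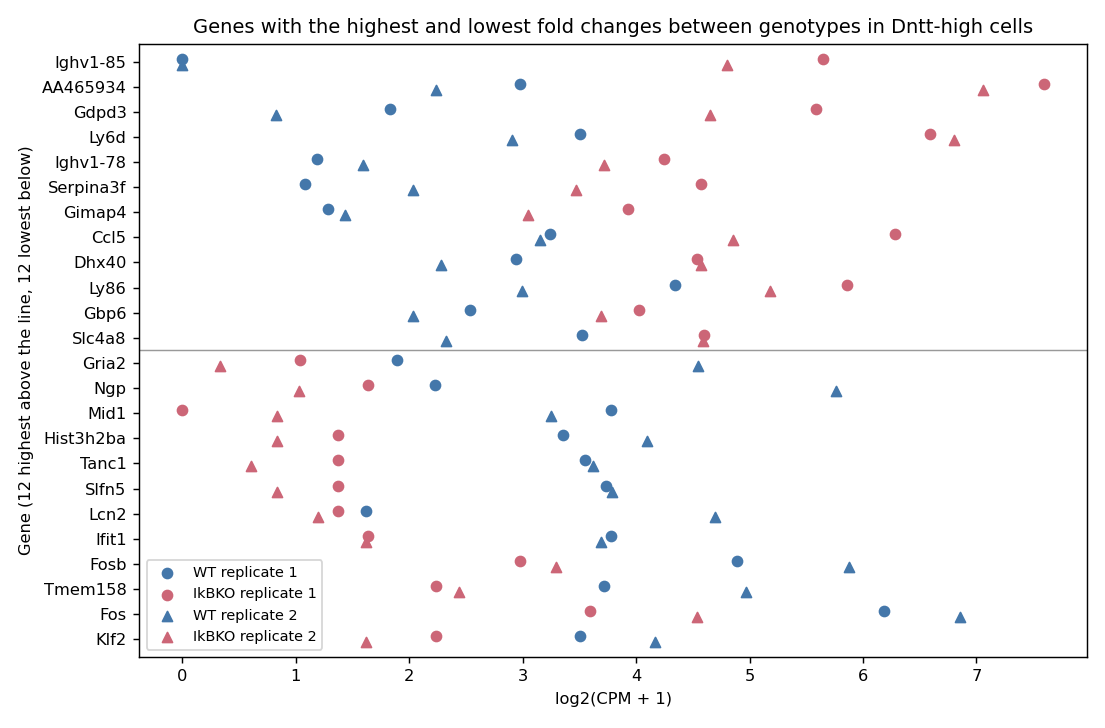
Each point is the log2(CPM + 1) of a gene in 1 pool of members, for the 12 highest and 12 lowest named genes, with circles for replicate 1, triangles for replicate 2, blue for WT and red for IkBKO. Ighv1-85 lies at 0 in both WT pools and at 49.2 and 27.0 CPM in the IkBKO pools, while Gria2 is high in 1 WT pool.

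Of the 22 gene lists, the immediate-early genes, which respond to stimuli without new protein synthesis, had the largest share of calls in 1 direction. Of 16 tested, 14 fell in IkBKO members and 0 rose, with a median log2 difference of −1.23. Fos, an AP-1 subunit, stood at 72.0 and 11.1 CPM in WT and IkBKO of replicate 1, with 115 and 22.3 CPM in replicate 2 (log2 −2.37 ± 0.15, edgeR adjusted p = 8.70e-26). Its partner Jun stood at 155 and 59.7 CPM, and at 230 and 67.1 CPM (−1.52 ± 0.11). Egr1 and Nr4a1, transcription factors induced by signalling, fell by 2.02 and 2.06. The summed list was at 911 and 451 CPM in replicate 1 and 1406 and 485 CPM in replicate 2. It was 6 of the 16 with all pools but no block, and then 5 without IkBKO of replicate 1, 3 without IkBKO of replicate 2, 10 without WT of replicate 2 and 14 without WT of replicate 1.

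Of 14 stem cell genes tested, 9 fell and 1 rose, with a median of −0.55. The summed list was at 1681 and 1712 CPM in WT and IkBKO of replicate 1 and 2096 and 1436 CPM in replicate 2, so that it was lower in IkBKO in replicate 2 only. Hlf, a transcription factor of stem cells, stood at 130.2 and 34.9 CPM in WT and IkBKO of replicate 1, with 261 and 94.1 CPM in replicate 2 (log2 −1.54 ± 0.12, edgeR adjusted p = 2.73e-19). It was seen in 53.0% and 62.1% of WT members and in 26.4% and 45.7% of IkBKO members. In the set chosen anew after thinning it was seen in 30.4% and 43.6% of WT and 10.5% and 17.9% of IkBKO cells. The homeobox gene Hoxa9 fell by 0.91, the stem cell factor receptor Kit by 0.55, Meis1 by 0.53, Mecom by 0.56, Procr by 1.39 and Tie1 by 1.59. The interferon-induced membrane protein gene Ifitm1 rose by 0.38. With no block, 0 stem cell genes were called over all pools (for Hlf, log2 −1.46, edgeR adjusted p = 0.658), and 5 fell without WT of replicate 1 and 0 without any of the other 3 pools. With the block but without the members that held 10 or more UMIs of other cells' markers, it was 6.

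Genes of antigen presentation and of DNA synthesis were higher. Of 8 MHC class II genes, 4 rose and 0 fell, with a median of 1.45. H2-Ab1, a class II β chain, stood at 52.8 and 201 CPM in replicate 1 and at 74.9 and 159 CPM in replicate 2 (log2 1.56 ± 0.15, edgeR adjusted p = 2.91e-05), and it was called with any one pool left out. Ciita, the class II transactivator, rose by 1.33, and the peptide loaders H2-DMa and H2-DMb1 by 0.38 and 0.66, but these 3 missed the threshold with any one pool left out. The list then had 4 higher without either WT pool and 1 without either IkBKO pool. Of 20 G1/S genes, 9 rose and 0 fell, with a median of 0.33, among them the polymerase clamp Pcna (0.36), the ribonucleotide reductase subunit Rrm2 (0.57) and the helicase subunit Mcm5 (0.38). With no block that count was 0 over all pools, 1 without WT of replicate 1 and 0 without any other pool. Of 18 G2/M genes, 1 rose, Ccnb1 (0.68).

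Interferon-stimulated genes split. Of 20 tested, 4 rose and 7 fell, with a median of −0.13. Among those that rose were the guanylate-binding and related GTPases Gbp3, Gbp4 and Igtp, by 1.39, 2.30 and 1.06. The antiviral genes Ifit1, Ifi44, Isg15, Rtp4, Usp18 and Xaf1 and the transcription factor Irf7 fell, by between 0.74 and 2.45. Of 14 genes of the NF-κB family, 1 rose and 2 fell. Nfkbie, which encodes IκBε, stood at 11.3 and 4.23 CPM in replicate 1 and at 12.2 and 1.81 CPM in replicate 2 (log2 −2.06 ± 0.37, edgeR adjusted p = 2.60e-05). Nfkbib, for IκBβ, fell by 0.76 and the atypical IκB gene Bcl3 rose by 1.09, and both missed the threshold with any one pool left out, as Nfkbie did without IkBKO of replicate 2. Nfkbia, for IκBα, was at 49.8 and 47.6 CPM and at 72.9 and 53.9 CPM (−0.20, edgeR adjusted p = 0.395).

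Genes of the lymphoid program were called in both directions. Of 24 lymphoid transcription factors, 3 fell and 0 rose, the chromatin organiser Satb1 (−0.42), Ets1 (−0.69) and Lmo2 (−0.37), and none of the 3 was called with any pool left out. Of 17 lymphoid surface genes, 2 rose (Ly6d, and the chemokine receptor Cxcr4 by 0.54) and 4 fell (Flt3 by 0.32, Cd27 by 0.35, Btla by 1.78 and Lax1 by 0.55). With any one pool left out, Cxcr4, Flt3 and Cd27 missed the threshold, and the list had 1 or 2 higher and 0 or 2 lower. Of 12 genes of V(D)J recombination and end joining, 0 were called. Ighm, whose unrearranged locus is transcribed early, was at 330 and 311 CPM and at 346 and 261 CPM (−0.17, edgeR adjusted p = 0.313). Of 5 antigen receptor constant genes, 1 fell, Ighd (−1.19). Of 10 plasmacytoid dendritic genes, 2 rose (Cox6a2, a respiratory chain subunit, by 1.25, and Cd300c by 3.10) and 2 fell (Irf7 and Runx2). Early B genes showed 1 of 4 lower (Cd72, −0.77) and early T genes 0 of 5. Granulocyte and monocyte genes had 1 of 17 higher (Calr), megakaryocyte and erythroid genes 1 of 8 (Tfrc) and the BCL2 family 1 of 9 (Pmaip1). Over all genes tested 3.81% were higher, so a single call says little about a list. Pmaip1 was near the floor, at 0.638 and 2.11 CPM in WT and IkBKO of replicate 1 and 0.464 and 3.37 CPM in replicate 2.

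Some markers of other mature cells were present. The summed mature neutrophil list was at 51.9, 50.2, 700 and 18.1 CPM (WT and IkBKO of replicate 1, then of replicate 2), with 2 of its 5 tested genes lower, both owed to the member described. The mast cell and basophil list, at 14.5 to 24.3 CPM, had 1 gene higher (Mcpt8, 1.53) and 1 lower (Hdc). The erythroid list, at 24.6, 50.2, 21.7 and 63.0 CPM, had Hbb-bt higher (1.75), a globin with a near-identical copy. Of the T and NK list, Ccl5 was higher, Nkg7 was at 102 to 115 CPM over the pools, and Cd8a and Ncr1 were at 0. Without the 8, 8, 13 and 18 members with 10 or more UMIs of these lists, 256 genes were higher and 263 lower, 514 of them among the 824. Mcpt8, Nfkbib, Ighd, Irf7 and Flt3 then missed the threshold.

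**Figure D3:**
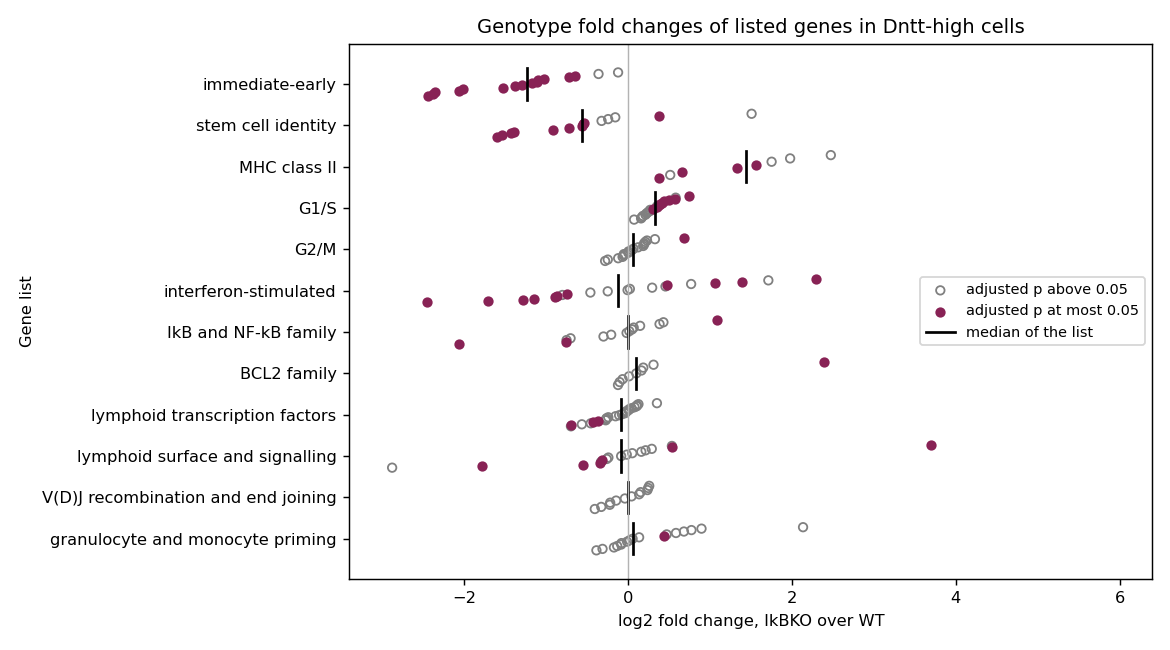
Each point is the log2 difference of a gene, IkBKO over WT members, for 12 lists, filled where the adjusted p was at most 0.05, and black lines are list medians. Immediate-early genes lie to the left around −1.23 and MHC class II genes to the right around 1.45, while lymphoid transcription factors lie near 0.

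The genotype differences of members were also tested against those of all other LSK cells of the same pools. Those other cells included the double-positive cells, and their mix differed between genotypes. Cells with 20 or more Elane UMIs numbered 155 in WT and 716 in IkBKO of replicate 1, and 23 and 100 in replicate 2. The test therefore cannot tell whether a difference belonged to the class. Of 14003 genes, 0 were called (0%) by edgeR for a genotype difference that differed between members and other cells, with 424 at an unadjusted p under 0.05, and DESeq2 called 2 higher and 2 lower. For Ly6d the difference of differences was 1.99 on the log2 scale (edgeR adjusted p = 1) and for Hlf it also missed the threshold. Without IkBKO of replicate 2 the test called 105 higher and 212 lower, and with any other pool left out it called from 3 to 10 higher and from 2 to 26 lower. With all pools and no filter on low counts it called 14 and 13.

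Along Dntt itself, members with more Dntt held more lymphoid and fewer stem cell and myeloid transcripts. They were split into 3 bins, with 3 to 5, 6 to 11 and 12 or more Dntt UMIs, and the highest was compared with the lowest in the same pool. The highest bin held 30.9% of WT and 41.4% of IkBKO members in replicate 1 and 19.6% and 32.9% in replicate 2. In the set chosen anew after thinning it held 20.9% and 22.6%, and 9.73% and 26.3%. Of 9237 genes tested, 316 (3.42%) were called by edgeR, 175 (1.89%) higher and 141 (1.53%) lower with more Dntt. Dntt itself was set by the bins and was left out of the test results. Without WT of replicate 1 there were 65 and 64 calls, and without IkBKO of replicate 2 there were 119 and 84.

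Blnk, the adaptor of the pre-B cell receptor, averaged 2.17, 7.51 and 18.6 CPM over the 3 bins. In the 4 pools it lay between 1.55 and 2.89 CPM in the lowest bin and between 12.4 and 22.8 CPM in the highest, without overlap (log2 2.88 ± 0.32, edgeR adjusted p = 4.56e-10). In double-positive cells it averaged 48.6 CPM. Cox6a2 followed, at 21.01, 50.05 and 135 CPM (2.67 ± 0.14), then Arpp21 at 15.5, 29.7 and 77.9 CPM (2.30 ± 0.30). Ly6d averaged 4.53, 30.9 and 123 CPM (4.33 ± 0.82, edgeR adjusted p = 0.0475), but the highest bin was 6.27 and 21.8 CPM in the WT pools and 204 and 258 CPM in the IkBKO pools. The V segment Ighv1-77 rose by 2.21, the kinase gene Dyrk4 by 1.93, the sialic acid hydroxylase Cmah by 1.86, Tmem108 by 1.82, AA467197 by 1.67, the filament gene Bfsp2 by 1.63 and the cyclin Ccne1 by 1.62. Blnk, Cox6a2, Cmah, Bfsp2 and Ccne1 of these were called with any one pool left out. With bins set by Dntt per 10000 UMIs, Ccne1 was at 0.40 (edgeR adjusted p = 0.539) while the other 11 stayed called. Ighv1-85 and Ighv1-78, which did not meet the conditions for the 12, were also called, at 4.01 and 2.83, and Ighv1-85 had no UMI in WT members.

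Rag2, a subunit of the enzyme that cuts antigen receptor genes, rose within the class and averaged 4.45, 5.70 and 13.1 CPM over the bins (log2 1.74 ± 0.32, edgeR adjusted p = 0.00014). Its partner Rag1 was seen in 2.04%, 2.14%, 3.17% and 3.11% of members over the pools and in 15.4%, 15.9%, 16.5% and 14.6% of double-positive cells. Of 10 genes of recombination and end joining, 3 rose and 0 fell: Rag2, the Ku subunit Xrcc6 (0.98) and the chromatin protein Hmgb1 (0.19, but −0.035 with bins set by Dntt per 10000 UMIs). Ighm averaged 231, 305 and 408 CPM (0.82 ± 0.07, edgeR adjusted p = 7.86e-15) and Ighd rose by 1.35, 2 of 4 antigen receptor constant genes.

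Lymphoid regulators were called more often upward. Of 24 transcription factors, 7 rose and 2 fell, with a median of 0.14. Notch1, the receptor that directs T cell fate, averaged 94.9, 116 and 163 CPM (0.76 ± 0.09, edgeR adjusted p = 4.91e-10). Ets1 rose by 0.96, Mef2c by 0.41, Satb1 by 0.36, Ikzf1 by 0.34, Tcf4 by 0.30 and Foxp1 by 0.25, and Ikzf2 and Lmo2 fell by 0.90 and 0.67. Of 17 surface genes, 4 rose and 0 fell (Ly6d, Arpp21, Flt3 and Cd52). Early T genes had 1 of 4 higher, the kinase Lck (0.91), early B genes 1 of 3, Blnk, and plasmacytoid dendritic genes 3 of 10 higher (Cox6a2, Pld4 and Tcf4) and 1 lower (Lag3).

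Stem and myeloid transcripts went the other way. Hlf averaged 178, 135 and 56.0 CPM (log2 −1.70 ± 0.10, edgeR adjusted p = 4.74e-20), and it fell in all 4 pools, from 183 to 53.3 and from 333 to 98.8 CPM in WT and from 49.5 to 27.9 and from 148 to 44.0 CPM in IkBKO. Of 12 stem cell genes, 8 fell and 0 rose, with a median of −0.50. Ifitm1 averaged 822, 618 and 355 CPM (−1.16 ± 0.09), and Ctla2a and Kit fell by 0.49 and 0.51. Of 15 granulocyte and monocyte genes, 6 fell and 0 rose, also with a median of −0.50. Prtn3, a granule protease, averaged 541, 422 and 250.2 CPM (−1.08 ± 0.06, edgeR adjusted p = 4.49e-22), and the transcription factor Cebpb and the receptor Csf3r each fell by 0.65. Others among the 12 lowest were the cytokine Il15 (−1.55), Pcp4l1 (−1.40), the peptidoglycan receptor Pglyrp1 (−1.39), the lipoprotein receptor Vldlr (−1.38), the G protein subunit Gng11 (−1.36), the tetraspanin Cd63 (−1.31), Serpina3g (−1.30), the mucin Muc13 (−1.30), Myct1 (−1.23) and Cuedc1 (−1.23). Of the 12, 10 were called with any one pool left out, all but Cuedc1 and the basophil protease Mcpt8, whose −1.58 became −0.94 (edgeR adjusted p = 0.28) without the members rich in other cells' markers.

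Megakaryocyte and erythroid genes had 1 of 6 higher (Tfrc, 0.79) and 1 lower (Car2, −0.86), the interferon-stimulated genes 1 of 19 higher (Ifi27l2a), and the BCL2 family 1 of 8 (Bcl2, 0.34). MHC class II and NF-κB genes had 0 called of 7 and 0 of 14. G2/M genes had 4 of 18 higher, G1/S genes 1 of 20 and immediate-early genes 3 of 15 lower. These last 3 depended on how depth was treated: with bins set by Dntt per 10000 UMIs, G2/M and G1/S genes had 9 and 12 lower with 0 higher, and immediate-early genes 6 higher with 0 lower. The stem cell count was then 8 lower and 2 higher, and that of lymphoid transcription factors 10 higher and 2 lower.

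**Figure D4:**
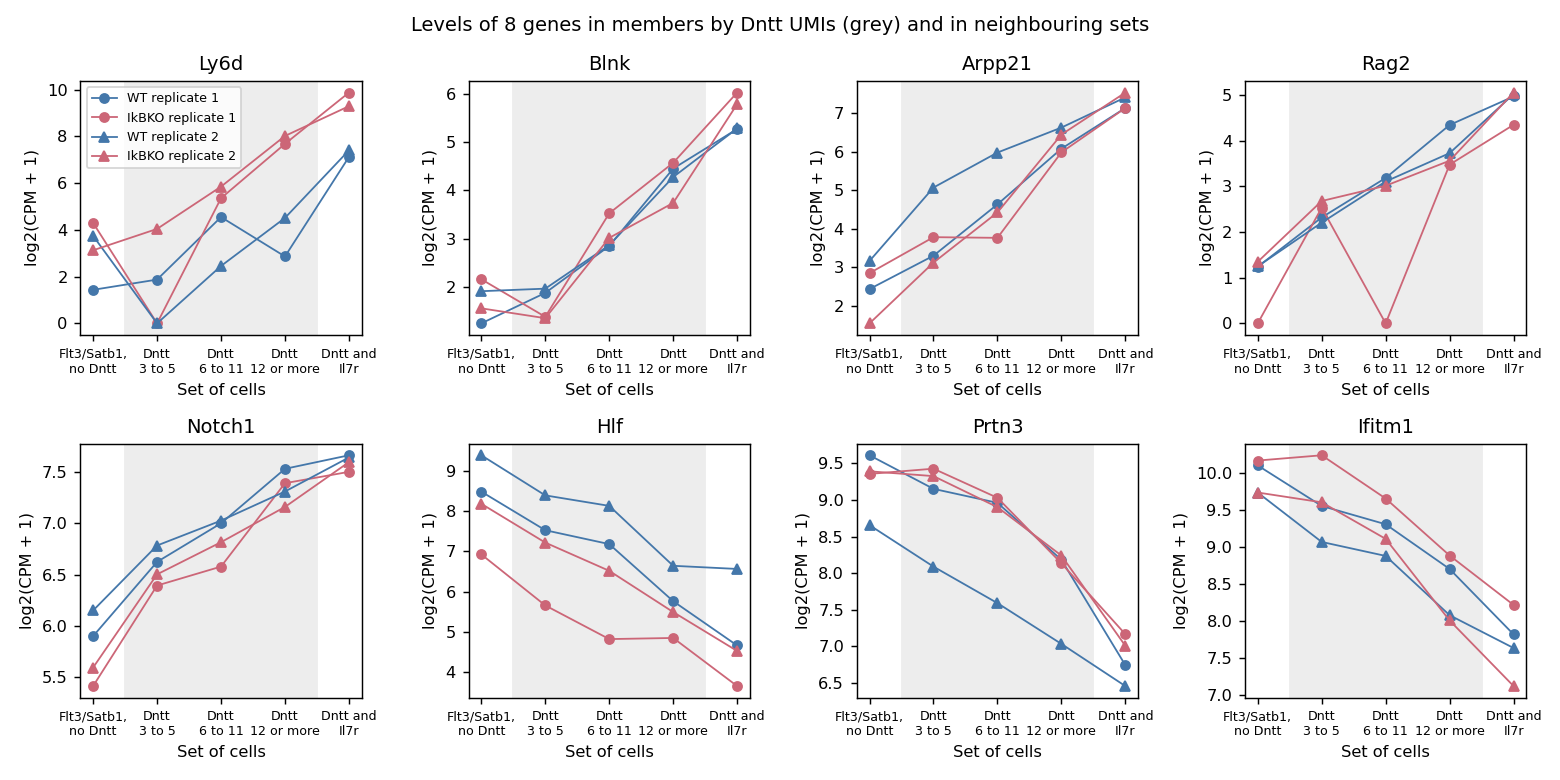
Lines join the log2(CPM + 1) of each pool for 8 genes over cells with Flt3 and Satb1 but no Dntt, the 3 bins of members (grey) and double-positive cells. Blnk, Arpp21, Rag2 and Notch1 go up and Hlf, Prtn3 and Ifitm1 go down in every pool between the lowest and highest bin.

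Cell by cell the order was similar, although these are correlations of sparse counts within the same cells and share depth. Over 8092 genes seen in at least 10% of members, the mean Pearson correlation with Dntt over the 4 pools had a median of −0.03. It was highest for Ighm (0.41), Arpp21 (0.38), Cox6a2 (0.37), the interleukin 12 subunit gene Il12a (0.37) and Tmem108 (0.36), and lowest for Prtn3 (−0.46), Ifitm1 (−0.33) and Tuba1b (−0.29).

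For 5 of 9672 genes (0.0517%) the change along Dntt differed between genotypes, all 5 steeper in IkBKO, by an interaction term in edgeR. Tmem121 went from 24.9 to 31.9 CPM and from 27.5 to 34.7 CPM between the lowest and highest bins of the WT pools, and from 9.58 to 27.9 and from 3.09 to 38.6 CPM in the IkBKO pools (log2 difference 2.65 ± 0.49, edgeR adjusted p = 0.00519). Crip1, a LIM-domain protein gene, went from 646 to 790 and from 525 to 603 CPM in WT, and from 252 to 412 and from 197 to 416 CPM in IkBKO (0.70 ± 0.13, edgeR adjusted p = 0.00519). Both were lower in IkBKO than in WT members in the lowest bin. In the highest bin the pools overlapped for Tmem121, while Crip1 was still lower in IkBKO. Il12a went from 185 to 312 and from 248 to 291 CPM in WT, and from 102 to 271 and from 112 to 261 CPM in IkBKO (0.82 ± 0.16, edgeR adjusted p = 0.0126). Ighv1-77 went from 6.21 to 18.3 and from 10.5 to 17.0 CPM in WT, and from 4.79 to 77.3 and from 7.73 to 82.7 CPM in IkBKO (2.26 ± 0.45, edgeR adjusted p = 0.0126). AA467197 reached 96.6 CPM in the highest bin of IkBKO replicate 2 and 26.6 to 35.5 CPM in those of the other pools (1.81 ± 0.37, edgeR adjusted p = 0.0134). None of the 5 was called without WT of replicate 2 or without IkBKO of replicate 2, and DESeq2 called 0 of them. With bins set by Dntt per 10000 UMIs, Tmem121 (2.49) and Crip1 (0.52) stayed called, while AA467197 (0.33), Il12a (0.34) and Ighv1-77 (1.64) had edgeR adjusted p-values from 0.995 to 1.

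**Figure D5:**
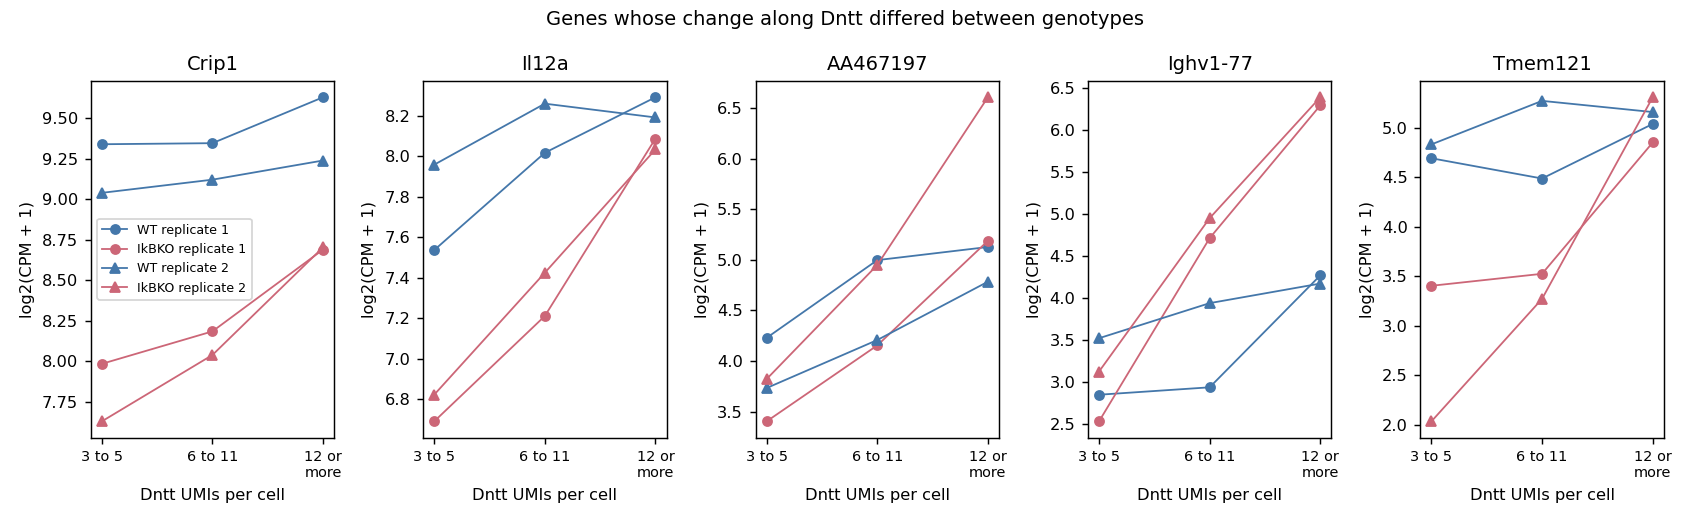
The log2(CPM + 1) of the 5 genes in each pool is drawn over the 3 Dntt bins, blue for WT and red for IkBKO, circles for replicate 1 and triangles for replicate 2. The IkBKO lines climb more steeply, and for Ighv1-77 they end at 77.3 and 82.7 CPM where the WT lines end at 18.3 and 17.0 CPM.

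Tmem121, Crip1 and the Ighv segments lie in or beside the heavy-chain locus on chromosome 12 (mm10), a region looked at after these values were seen. Crip1 (chr12:113146316-113153879) and Tmem121 (chr12:113185930-113189523) are 2 of 9 tested genes within 500000 bases of Ighm, with heavy-chain genes and unnamed Gm models left aside. Of these 9 they were the 2 called for genotype, both lower in IkBKO members: Crip1 at 691 and 328 CPM and at 553 and 292 CPM (log2 −0.92 ± 0.09, edgeR adjusted p = 2.05e-13), and Tmem121 by −0.72. The constant gene Ighd, which lies in the same window, was also called lower (−1.19). Of 6 Ighv segments tested, 3 were higher in IkBKO members (Ighv1-85, Ighv1-78 and Ighv1-77) and 2 lower. Ighv1-82 was at 10.5 and 6.96 CPM in WT and at 0 in IkBKO, at least 6.64-fold and at least 8.95-fold lower, and Ighv1-74 fell by 3.55. Over 185 Ighv segments the sum was 37.8 and 116 CPM in replicate 1 and 37.1 and 82.9 CPM in replicate 2. From the lowest to the highest bin it went from 28.8 to 52.8 and from 29.7 to 45.6 CPM in WT, and from 16.0 to 210.3 and from 11.6 to 175 CPM in IkBKO. These segments are related in sequence, and whether reads of 1 were counted for another was not tested, so the value of each single segment is uncertain. In double-positive cells too, Ighv1-85 had 0 UMIs in 182 and 273 WT cells and was seen in 42.0% and 35.4% of IkBKO cells. The strain is not given, and whether both genotypes carry the same sequence at this locus was not tested.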

How the data were processed

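LSK cells were profiled by 10x 3′ v3.1 sequencing in 2 hashed libraries. The authors deposited raw UMI counts per gene and cell, aligned to mm10 with Cell Ranger (6.0.0 per the file headers, 7.0 per the submitters' processing notes, which also name Seurat 4.3.0), and a cell table with the genotype and a quality verdict. The antibody tag counts of replicate 1 are as deposited. Members were selected on their own counts, and the members and gene lists were chosen with earlier results of these data known. Doublets were treated as in the deposited verdict and no caller was added.

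Counts of members were summed per pool and tested in edgeR 4.0.16 (R 4.3.3) with TMM scaling, genes filtered by filterByExpr, the library as a block, the quasi-likelihood test and Benjamini-Hochberg adjustment. The block was used because genotypes shared each library, and same-numbered pools deviated together (r = 0.344 over 11214 genes, 0.254 over the 11208 without sex-linked genes). Named genes were the 12 highest and 12 lowest calls that reached 10 CPM and moved the same way in each library, plus up to 4 per list, and further list members were named after their values were seen. Dntt bins within a pool share its cells' source, and were compared within pools. DESeq2 1.42.0, other scalings, filters, thinning, and each pool left out were tried as alternatives. A few genes are not reported here. The procedure was tested on simulated data. Python 3.11.15 was used for counts and plots.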

Additional observations from a re-analysis of the deposited data

Results flagged for a closer look

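The change along Dntt differed between genotypes by an interaction term for 5 genes, each steeper in IkBKO members. The log2 difference of the change was 2.65 for Tmem121, 2.26 for Ighv1-77, 1.81 for AA467197, 0.82 for Il12a and 0.70 for Crip1. The highest of the edgeR adjusted p-values was 0.0134. In all 4 pools each of the 5 was higher in the highest bin than in the lowest. DESeq2 called 0 of them, and with bins set by Dntt per 10000 UMIs only Tmem121 and Crip1 of the 5 stayed called. The raw bins were not matched for depth between genotypes. In the lowest bin the median Dntt per 10000 UMIs was 3.39 in WT and 2.69 in IkBKO of replicate 1, and 4.57 and 2.94 in replicate 2.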

How the results depend on the processing

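In the genotype comparison no gene was called in the opposite direction under any alternative, but counts moved from 427 higher and 397 lower. They were 52 and 15 with DESeq2, 276 and 200 with members chosen after thinning to 5000 UMIs, 196 and 132 without members with 2 or more G2/M genes, and 263 lower with Dntt of at least 6 UMIs. With no replicate block, 34 were higher and 34 lower, 67 of them shared, and leaving out a pool, also with no block, gave 29 to 177 higher and 24 to 182 lower. Without members rich in other cells' markers (chosen after seeing the data) the counts were 256 and 263.

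Against other LSK cells, the count of 0 became 14 and 13 with no filter, 2 and 2 with DESeq2, 0 and 4 without the members with the most UMIs, 1 and 0 without members rich in other markers, and 2 and 2 against double-positive cells (the last 2 chosen after seeing the data). Leaving out a pool gave 3 to 105 higher and 2 to 212 lower.

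Along Dntt, DESeq2 called 69 and 52, leaving out a pool gave 65 to 171 and 64 to 146, and bins by Dntt per 10000 UMIs gave 687 and 650. Under those bins Ccnb2 (−0.14), Cdc20 (−0.27), Cenpe (−0.12), Hmgb1 (−0.035), Rrm2 (−0.75) and Tpx2 (−0.87) turned downward, and Ier2 (0.078) and Junb (0.21) upward, and the cause was not tested. The genotype difference along Dntt gave 8 and 5 with no filter, 0 with DESeq2, 1 lower without the members with the most UMIs, 2 and 1 with those bins, and 0 to 10 higher with a pool left out.

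The share of members stayed lower in IkBKO under all 8 alternatives, by 5.45 to 12.1 percentage points. Depth limits genes at a few CPM, and 2 pools a genotype limit every test.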

Other observations

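Set beside all other LSK cells, as a description of cells chosen partly on lineage genes, members held more of the sialic acid receptor Cd33 (33.7 against 7.86 CPM on average over the pools), of Il12a (223 against 60.2 CPM), of the secreted protein gene Wfdc17 (299.8 against 92.8 CPM) and of the RNA sensor Tlr7 (11.4 against 2.96 CPM). They held less of the granule protease Elane (6.52 against 533 CPM), the light-chain constant gene Igkc (2.75 against 253 CPM), the myeloid membrane gene Ms4a3 (2.46 against 112 CPM) and the lipoprotein gene Apoe (31.6 against 312 CPM).

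The chemokine receptor gene Ccr9, which guides T cell precursors, differed more between WT pools than between genotypes in replicate 1: it stood at 15.2 and 8.99 CPM in WT and IkBKO of replicate 1, with 69.3 and 4.41 CPM in replicate 2. In IkBKO of replicate 1 it was seen in 3 of 140 members, 1 of which held 13 UMIs. By share of members with a UMI, WT and IkBKO stood at 6.32% and 2.14% in replicate 1 and at 23.2% and 2.42% in replicate 2.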
